A study of Mus musculus with 16 samples.

Results

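The actins, the alpha-actinins and the muscle cofilin of denervated mouse muscle were followed here as 7 genes, Acta1, Actc1, Actb, Actg1, Actn2, Actn3 and Cfl2. They were found by gene symbol, and each symbol matched 1 of the 55487 genes counted. The series held 16 libraries in 4 groups of 4 from male C57BL/6J mice, which the study's methods give as 2 to 6 months old, and all were taken 21 days after surgery. In the DEN groups a piece of the sciatic nerve of 1 leg was cut out, and in the Sham groups the nerve was located but left whole. DEN fibers and sham fibers were single myofibers of the EDL (extensor digitorum longus), freed by collagenase digestion, with many fibers in each RNA sample. DEN whole muscle and sham whole muscle were homogenized tibialis anterior (TA). Preparation and muscle therefore cannot be told apart in any comparison of fibers with whole muscle. The study describes its replicates as different mice, and nothing in the labels says whether an EDL and a TA library came from the same one.

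Thin filaments of the sarcomere are polymers of alpha-actin, and alpha-actinin crosslinks their barbed ends at the Z-disc. Adult skeletal fibers build them from Acta1, the skeletal alpha-actin, whereas Actc1, the cardiac alpha-actin, is the sarcomeric actin of the heart and is used by skeletal muscle during development and regeneration. Actb and Actg1 encode the cytoplasmic beta- and gamma-actins found in every cell type. Actn2 is made in skeletal fibers and in the heart, whereas Actn3 is kept to fast fibers. Cfl2 encodes the muscle cofilin, which severs and depolymerizes actin filaments and tunes their length. Serum response factor (SRF) binds the CArG box of many actin promoters, and its partner MRTF is held back by free actin monomers.

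Actn2 and Cfl2 were higher in DEN than in Sham in both preparations, by either way of scaling the libraries. Actc1 was far lower in DEN fibers than in sham fibers and differed in this from whole muscle. Actb and Actg1 in both preparations and Acta1 in whole muscle were lower in DEN relative to the typical gene. None of them was called lower when libraries were scaled by their totals, and Actb was then called higher in DEN whole muscle. Actn3 was called higher only by totals. Actg1 and Actb were more abundant in fibers than in whole muscle whether the nerve was cut or not.

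In the GRCm38 build all 7 genes lie on the minus strand. The GENCODE annotation places Acta1 at chr8:123891769-123894751 with 7 exons in its longest coding transcript and Actc1 at chr2:114047282-114053548 with 7. Actb lies at chr5:142903115-142906754 with 6 exons and Actg1 at chr11:120345690-120348542 with 6. Actn2 spans chr13:12269426-12340760 with 21 exons, Actn3 spans chr19:4861216-4877909 with 21, and Cfl2 lies at chr12:54858809-54862877 with 4. Acta1 and Actc1 each have 1131 coding bases, and Actb and Actg1 each have 1125.

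RefSeq promoter sequences (GRCm38.p6) were at hand for 5 of the 7 genes, namely Acta1, Actc1, Actg1, Actn2 and Cfl2. They are shown because the 3 actins hold one short motif, and Actn2 and Cfl2 hold another, which Actg1 also holds further upstream. Each run starts 120 bases before the RefSeq start site, is read 5′ to 3′ on the minus strand and stops before any annotated exon. Capitals mark the CArG box (CC, then any 6 A or T, then GG) or the E-box CACGTG. Each motif reads as the same motif on the opposite strand, so only the strand shown was searched. The Actc1 run lies in an intron of a longer GENCODE transcript.
Acta1, chr8:123894776-123894895: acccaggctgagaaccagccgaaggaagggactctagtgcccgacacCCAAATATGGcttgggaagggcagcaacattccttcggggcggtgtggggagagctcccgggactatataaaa
Actc1, chr2:114052888-114052995: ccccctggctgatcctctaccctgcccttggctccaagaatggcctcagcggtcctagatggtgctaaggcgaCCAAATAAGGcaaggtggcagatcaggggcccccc
Actg1, chr11:120348543-120348615: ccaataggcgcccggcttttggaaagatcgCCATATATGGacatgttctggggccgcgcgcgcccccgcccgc
Actn2, chr13:12340761-12340852: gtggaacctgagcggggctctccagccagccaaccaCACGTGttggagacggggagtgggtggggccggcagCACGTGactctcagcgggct
Cfl2, chr12:54862878-54862997: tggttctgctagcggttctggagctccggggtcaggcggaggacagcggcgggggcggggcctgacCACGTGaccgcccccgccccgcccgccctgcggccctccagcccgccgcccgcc

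The 3 actin promoters each held 1 CArG box in the window from 250 bases before to 50 after the start, beginning at -73 in Acta1, -47 in Actc1 and -90 in Actg1, and the windows of Actn2 and Cfl2 held none. That box was present in 1.63% of 32851 RefSeq promoter windows. Actn2 held CACGTG at -84 and -48 and Cfl2 held it at -54, and Actg1 held 1 further upstream at -141, outside the run shown. CACGTG was present in 7.15% of all windows and did not overlap a CArG box in any of the 5. A match of letters is a description and was not tested as a binding site.

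The transcripts of the members differ within the length of a read. Between Acta1 and Actc1, and between Actb and Actg1, the closest pair of read-length stretches still differed at 4 bases, and between Actn2 and Actn3 at 9. The longest run that Actb and Actg1 share exactly is 62 bases in exon 5 of both genes and is shown as the point where the cytoplasmic actins are hardest to tell apart.
Actb, chr5:142904101-142904162, identical to Actg1, chr11:120346671-120346732: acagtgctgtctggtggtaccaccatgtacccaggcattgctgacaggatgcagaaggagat
Of the 1820 read-length windows of Actb, 1.04% also occurred in the transcript of another gene. Actg1 was the uncertain member. Of its 1852 read-length windows, 943 (50.9%) also occurred in 6 processed pseudogenes, of which Gm12715 shared 820. With 1 alignment kept per read, such reads could be counted for either. The 6 pseudogenes together held 14.7 to 15.3% of the joint reads in DEN fibers and 14.5 to 15.8% in sham fibers. In whole muscle they held 13.1 to 14.2% in DEN and 14.1 to 14.5% in Sham. With their counts added, the log2 fold change of DEN over Sham was -0.57 in fibers, as for Actg1 alone, and -0.53 in whole muscle, where Actg1 alone gave -0.52. That check was chosen after the data had been seen.

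Levels are given in RPM, reads scaled to a common library total. Together the 7 genes made up 3.88% ± 0.29 of all DEN fiber reads and 3.43% ± 0.49 of all sham fiber reads (SD, n = 4 each). In whole muscle they made up 4.28% ± 0.11 in DEN and 4.10% ± 0.16 in Sham. Acta1 alone made up most of this and was second of all genes by mean RPKM, which is RPM divided by gene length and allows genes to be compared, in each of the 4 groups. In DEN fibers the RPKM order was Acta1 (17373), Actn3 (2839), Actn2 (653), Actg1 (211), Actb (143), Cfl2 (133) and Actc1 (14.04). Of these neighbours only Actb and Cfl2 overlapped. In sham fibers the order was Acta1 (16658), Actn3 (2311), Actg1 (224), Actn2 (169), Actc1 (145), Actb (142) and Cfl2 (62.5), and from Actg1 down to Actb each gene overlapped the next. In DEN whole muscle it was Acta1 (18399), Actn3 (3812), Actn2 (674), Cfl2 (138), Actb (104), Actg1 (67.0) and Actc1 (30.9), with no overlap between neighbours. In sham whole muscle it was Acta1 (19646), Actn3 (3158), Actn2 (251), Actb (90.1), Actg1 (71.4), Cfl2 (65.0) and Actc1 (43.5), where only Cfl2 and Actc1 among neighbours overlapped.

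**Figure D1:**
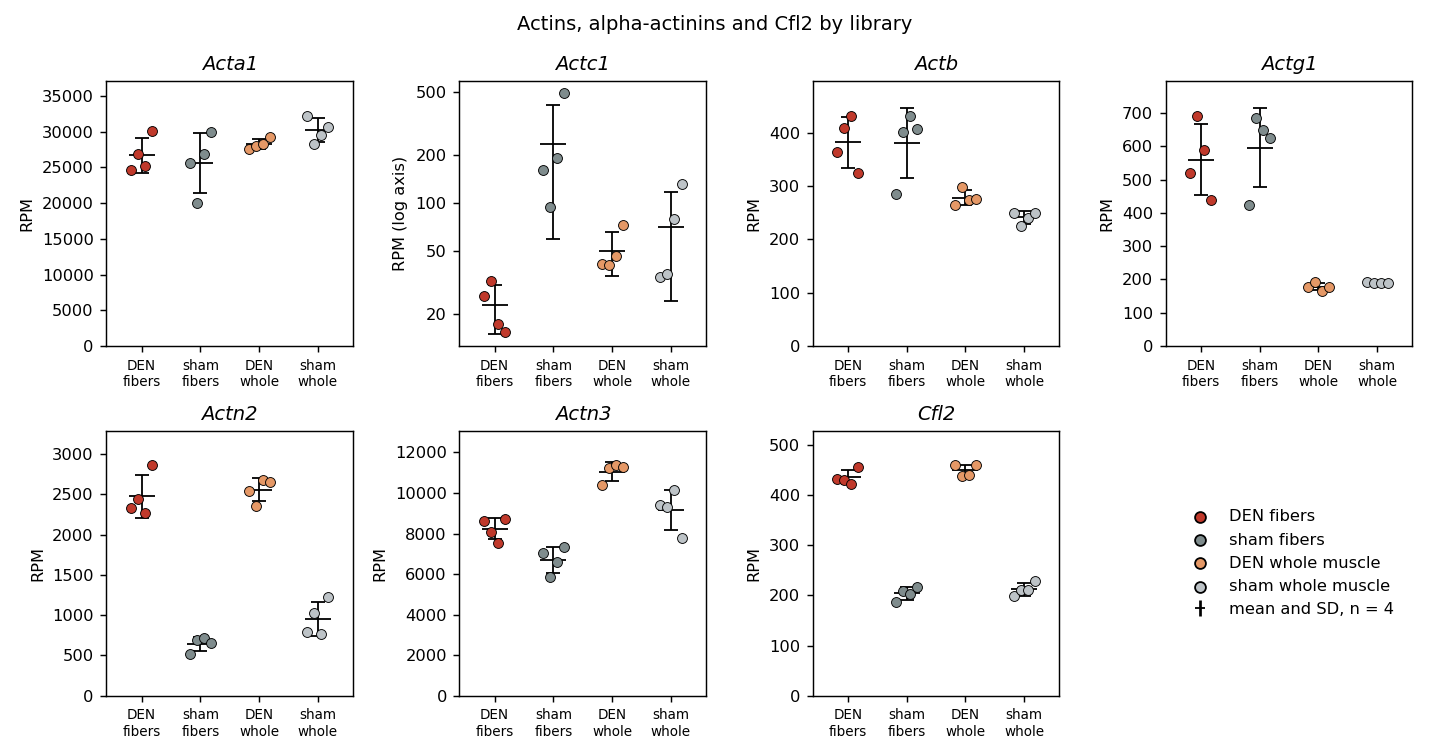
RPM of the 7 genes in each library, 1 panel a gene, with points for libraries and bars for mean and SD (n = 4). Actn2 and Cfl2 sit higher in both DEN groups than in both Sham groups, and the Actc1 panel, which has a log axis, shows DEN fibers between 15.5 and 32.1 RPM and sham fibers between 94.3 and 489.7 RPM.

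Library totals ran between 47570214 and 62297405 counted reads, so no member was limited by depth. The 6 fiber markers Ckm, Des, Myh1, Myh2, Myh4 and Ttn marked all 16 libraries as muscle. Their summed level was 46435 to 56180 RPM in DEN fibers and 81717 to 90097 RPM in sham fibers. In whole muscle it was 59770 to 65274 RPM in DEN and 93902 to 108008 RPM in Sham. The scaling of the libraries matters for the values below. Scaling by totals alone placed the median gene at +0.49 (log2, DEN over Sham) in fibers and +0.45 in whole muscle, whereas TMM scaling (trimmed mean of M-values, which centres on the typical gene) placed it at 0.0076 and 0.024. RPM values carry the first scale and the fold changes below the second, and for the 7 members and their relatives both are given where they disagree on a call or a sign. In such bulk samples, fewer cells of a type and less RNA per cell cannot be told apart.

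Actn2 showed the clearest increase. In DEN fibers it had 2335, 2447, 2269 and 2861 RPM, against 514, 691, 712 and 655 RPM in sham fibers. All 4 DEN libraries lay more than 3-fold above every sham library, with no overlap. Its log2 fold change was 1.47 ± 0.12 (SE, edgeR quasi-likelihood test, adjusted p = 9.02e-06), and 1.95 ± 0.12 by totals. In DEN whole muscle it had 2537, 2361, 2677 and 2653 RPM, against 797, 1025, 762 and 1227 RPM in sham whole muscle. Here too the groups were apart, and the sham libraries spread more than the DEN libraries. The log2 fold change was 0.99 ± 0.14 (adjusted p = 8.55e-05), and 1.42 ± 0.14 by totals. The difference between the preparations, 0.46 ± 0.19 on the log2 scale, did not pass the test in the fit of all 16 libraries (adjusted p = 0.104), and it did pass when sham whole muscle replicate 1 (0.61, adjusted p = 0.0423) or 3 (0.60, adjusted p = 0.0450) was left out.

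Cfl2, the muscle cofilin, had the smallest coefficient of variation of the 7 members in both fiber groups, 3.23% in DEN and 6.21% in Sham. DEN fibers had 433, 431, 423 and 455 RPM, against 188, 208, 202 and 218 RPM in sham fibers. DEN whole muscle had 459, 439, 439 and 459 RPM, against 198, 212, 211 and 229 RPM in sham whole muscle. Every DEN library stood above every sham library, and the 2 preparations gave nearly the same values. The log2 fold change was 0.61 ± 0.08 in fibers (adjusted p = 0.000114) and 0.65 ± 0.05 in whole muscle (adjusted p = 1.72e-06). By totals these were 1.09 ± 0.07 and 1.08 ± 0.05. The effect in fibers minus that in whole muscle was -0.056 ± 0.089 (adjusted p = 0.707).

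Actc1, the cardiac alpha-actin, was the member that fell furthest. DEN fibers had 25.9, 32.1, 17.4 and 15.5 RPM, against 162, 94.3, 191 and 490 RPM in sham fibers. The groups were well apart, although sham fiber replicate 4 was more than 2.5 times the next library. The log2 fold change was -3.85 ± 0.51 (adjusted p = 0.000167), -3.37 by totals and -3.19 without sham fiber replicate 4. DEN whole muscle had 41.2, 40.5, 46.1 and 72.5 RPM, against 34.0, 35.5, 79.7 and 132.1 RPM in sham whole muscle. These groups overlapped, with 2 sham libraries below and 2 above every DEN library. The log2 fold change there, -0.93 ± 0.40, did not pass the test (adjusted p = 0.0638), and by totals it was -0.49. It passed without DEN whole muscle replicate 4 (-1.16, adjusted p = 0.0372), without sham replicate 1 (-1.16, adjusted p = 0.0208) and without sham replicate 2 (-1.17, adjusted p = 0.0246), and stood at -0.43 in the weakest such fit. The effect in fibers was lower than that in whole muscle by -2.94 ± 0.69 on the log2 scale (adjusted p = 0.00776), and it was the single member for which this difference passed.

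Because Actc1 is the sarcomeric actin of the heart, the cardiac markers Myh6, Nppa, Ryr2 and Tnni3 were read beside it. Their summed level was 3.98 to 14.2 RPM in DEN fibers and 0.970 to 14.7 RPM in sham fibers, and 1.14 to 1.90 RPM in DEN whole muscle and 2.45 to 5.47 RPM in sham whole muscle. Nppa, the atrial natriuretic peptide gene, had no read in any sham library and averaged 0.63 RPM in DEN fibers. The sham fiber library highest for Actc1, replicate 4, had a cardiac sum of 5.23 RPM, below those of sham fiber replicates 2 and 3. The slow fiber markers Myh7, Myl3, Tnni1 and Tnnt1 went the other way from Actc1 in fibers, at 146 to 195 RPM in DEN and 5.20 to 22.3 RPM in Sham, and in whole muscle they were at 139 to 184 RPM in DEN and 30.5 to 56.4 RPM in Sham. The part of these cells or fiber types in the Actc1 values was not tested.

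Acta1, the skeletal alpha-actin, had 24634, 26835, 25236 and 30036 RPM in DEN fibers, against 25621, 19950, 26829 and 29950 RPM in sham fibers. DEN whole muscle had 27583, 28017, 28226 and 29219 RPM, against 32231, 28270, 29527 and 30679 RPM in sham whole muscle. In RPM the groups overlapped in both preparations, and sham fiber replicate 2 was the lowest of all 16 libraries. Relative to the typical gene, Acta1 was lower in DEN whole muscle by a log2 fold change of -0.52 ± 0.06 (adjusted p = 1.75e-05). In fibers the value of -0.43 ± 0.18 did not pass (adjusted p = 0.0647), and it did without sham fiber replicate 2 (-0.54, adjusted p = 0.0230). By totals neither value passed, at 0.061 in fibers (adjusted p = 0.693) and -0.094 in whole muscle (adjusted p = 0.160).

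Actb, the beta-actin often used as a reference gene, had 364, 408, 432 and 325 RPM in DEN fibers, against 285, 402, 432 and 406 RPM in sham fibers. DEN whole muscle had 265, 298, 275 and 275 RPM, against 250, 225, 241 and 250 RPM in sham whole muscle. The fiber groups overlapped almost completely, whereas in whole muscle every DEN library was above every sham library. With TMM scaling Actb was lower in DEN in both, at -0.48 ± 0.11 in fibers (adjusted p = 0.00419) and -0.23 ± 0.05 in whole muscle (adjusted p = 0.00173). By totals it was level in fibers, at 0.0028 (adjusted p = 0.987), and higher in DEN whole muscle, at 0.20 (adjusted p = 0.00361), so its direction rests on the scaling.

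Actg1, the gamma-actin, had 520, 692, 590 and 437 RPM in DEN fibers, against 424, 686, 650 and 626 RPM in sham fibers. DEN whole muscle had 178, 192, 167 and 176 RPM, against 192.1, 188.6, 189.6 and 189.4 RPM in sham whole muscle. The groups overlapped in both, and the sham whole muscle libraries lay within 2% of each other. With TMM scaling Actg1 was lower in DEN by -0.57 ± 0.15 in fibers (adjusted p = 0.0107) and -0.52 ± 0.04 in whole muscle (adjusted p = 1.20e-06). By totals both values stayed negative but did not pass, at -0.090 in fibers (adjusted p = 0.650) and -0.093 in whole muscle (adjusted p = 0.0852).

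Since every cell makes the cytoplasmic actins, markers of other cells were read beside them. The macrophage markers (Adgre1, C1qa, C1qb, C1qc, Cd68, Csf1r and Mrc1) summed to 81.8 to 125 RPM in DEN fibers and 15.8 to 34.2 RPM in sham fibers, and 7 of 7 were called higher. In whole muscle they summed to 81.9 to 95.6 RPM in DEN and 31.8 to 65.6 RPM in Sham, with 3 of 7 called higher. Total scaling called 7 of 7 higher in both preparations. Among all genes 27.1% were called higher in fibers and 34.0% in whole muscle, and 59.5% and 60.9% by totals. The smooth muscle and pericyte markers (Acta2, Cnn1, Cspg4, Myh11, Pdgfrb, Rgs5 and Tagln) summed to 358 to 1419 RPM in DEN fibers, with 358 RPM in replicate 2 and at least 807 RPM in the other libraries, and to 315 to 509 RPM in sham fibers. In whole muscle they summed to 316 to 390 RPM in DEN and 407 to 470 RPM in Sham, with 7 of 7 called lower by either scaling. Among all genes 32.2% were called lower there, and 13.9% by totals. Fibro-adipogenic progenitor markers (Col1a1, Col3a1, Dcn, Lum, Pdgfra and Pi16) summed to 991 to 1489 RPM in DEN fibers and 387 to 1611 RPM in sham fibers, and to 554 to 1771 RPM in DEN whole muscle and 506 to 836 RPM in sham whole muscle. Their part in the Actb and Actg1 values was not tested.

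Actn3, the alpha-actinin of fast fibers, had 8611, 8083, 7555 and 8695 RPM in DEN fibers, against 7022, 5855, 6587 and 7350 RPM in sham fibers. DEN whole muscle had 10380, 11216, 11367 and 11277 RPM, against 9427, 9309, 10126 and 7780 RPM in sham whole muscle. In RPM every DEN library was above every sham library of the same preparation. Relative to the typical gene the sign turned and neither value passed, at -0.19 ± 0.14 in fibers (adjusted p = 0.260) and -0.16 ± 0.08 in whole muscle (adjusted p = 0.108). Without sham whole muscle replicate 4 the whole muscle value was -0.23 (adjusted p = 0.0115). By totals Actn3 was higher in DEN, at 0.30 in fibers (adjusted p = 0.0190) and 0.27 in whole muscle (adjusted p = 0.00904).

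**Figure D2:**
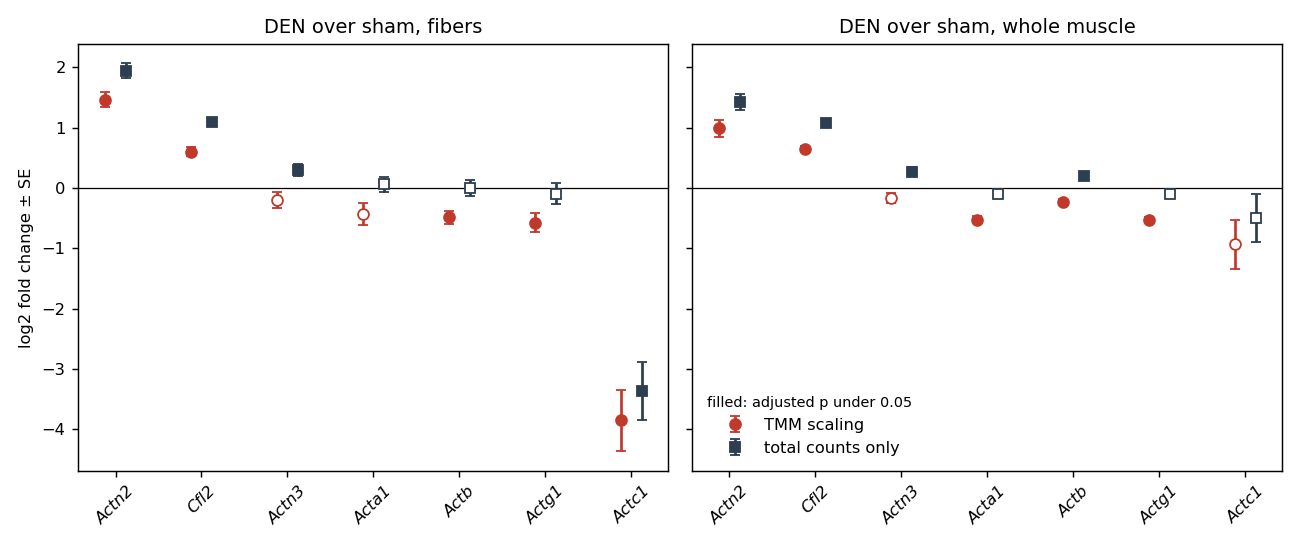
Log2 fold change of DEN over Sham with its SE for the 7 genes in fibers (left) and whole muscle (right), by TMM scaling (circles) and by total counts (squares), filled where the adjusted p is under 0.05. Actn2 and Cfl2 are above zero and filled throughout, Actc1 is far below zero in fibers, and the remaining 4 genes move towards or across zero with the scaling.

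Counted over the members, 2 were higher and 3 lower in DEN fibers, where 27.1% of 16724 genes tested were called higher and 27.0% lower. In DEN whole muscle 2 were higher and 3 lower, against 34.0% higher and 32.2% lower among 16379 genes. By totals 3 members were higher and 1 lower in fibers, where 59.5% of genes were called higher and 8.93% lower. In whole muscle 4 were higher and 0 lower by totals, against 60.9% higher and 13.9% lower. In the test of whether DEN acted differently in fibers and whole muscle, 0 members were called higher and 1 lower, where 7.09% and 11.8% of 17497 genes were called. No test was made of these counts over 7 genes. Leaving out sham whole muscle replicate 1 or 3, or sham fiber replicate 1, made the last count of called members 2, through Actn2 or, without the sham fiber library, Actb (-0.30, adjusted p = 0.0452).

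Ratios between members within a library do not depend on the scaling, and 10 were compared by an exact two-sided permutation test of 4 against 4 libraries, which cannot give a p below 0.0286. The RPKM ratio of Actn3 to Actn2 was 4.82, 4.32, 4.36 and 3.98 in DEN fibers, against 17.9, 11.1, 12.1 and 14.7 in sham fibers. In whole muscle it was 5.35, 6.21, 5.56 and 5.56 in DEN, against 15.5, 11.9, 17.4 and 8.29 in Sham. Fast alpha-actinin thus remained the more abundant of the pair in every library, by a smaller margin in DEN. The mean log2 ratio differed by -1.65 ± 0.16 in fibers and -1.17 ± 0.24 in whole muscle (SE), each with an exact permutation p of 0.0286 and 0.0571 after Benjamini-Hochberg adjustment over the 10 tests. No ratio passed the adjusted threshold of 0.05. At the floor of 0.0286 the adjusted p depends on how many other tests reach that floor, not on the size of the difference. The ratio of Actn3 to Actn2 was lower in 4 of 4 DEN libraries than in any sham library in both preparations.

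The ratio of Actc1 to Acta1 was 0.000490 to 0.00113 in DEN fibers and 0.00449 to 0.0155 in sham fibers. The difference was -3.23 ± 0.47 (log2, exact permutation p = 0.0286, adjusted 0.0571). In whole muscle it was 0.00137 to 0.00236 in DEN and 0.00100 to 0.00409 in Sham, differing by -0.20 ± 0.51 (exact permutation p = 0.743). Cardiac actin was therefore a minor sarcomeric actin in all 16 libraries. The ratio of Actg1 to Actb was 1.36 to 1.71 in DEN fibers and 1.498 to 1.72 in sham fibers, differing by -0.098 ± 0.088 (exact permutation p = 0.314). In whole muscle it was 0.612 to 0.678 in DEN and 0.763 to 0.845 in Sham, without overlap, and differed by -0.30 ± 0.044 (exact permutation p = 0.0286, adjusted 0.0571). Gamma-actin thus exceeded beta-actin in every fiber library and was below it in every whole muscle library, by the reads counted for Actg1 itself. Reads counted for its 6 pseudogenes, 14.1 to 14.5% of the joint reads in sham whole muscle, are left out of this ratio.

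Cytoplasmic over sarcomeric actin, as Actb plus Actg1 over Acta1 plus Actc1, was 0.0146 to 0.0236 in DEN fibers and 0.0158 to 0.0313 in sham fibers, differing by -0.11 ± 0.26 (exact permutation p = 0.686). In whole muscle it was 0.00886 to 0.0100 in DEN and 0.00788 to 0.00841 in Sham, without overlap, and differed by 0.17 ± 0.045 (exact permutation p = 0.0286, adjusted 0.0571). Cfl2 over Cfl1, the non-muscle cofilin, was 4.54 to 6.34 in DEN fibers and 3.39 to 4.71 in sham fibers. The log2 difference of 0.46 ± 0.15 came with an exact permutation p of 0.0571 and an adjusted p of 0.0952. In whole muscle the ratio was 5.78 to 6.66 in DEN and 4.65 to 6.00 in Sham, differing by 0.23 ± 0.11 (exact permutation p = 0.114). The muscle cofilin was the more abundant in every library.

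**Figure D3:**
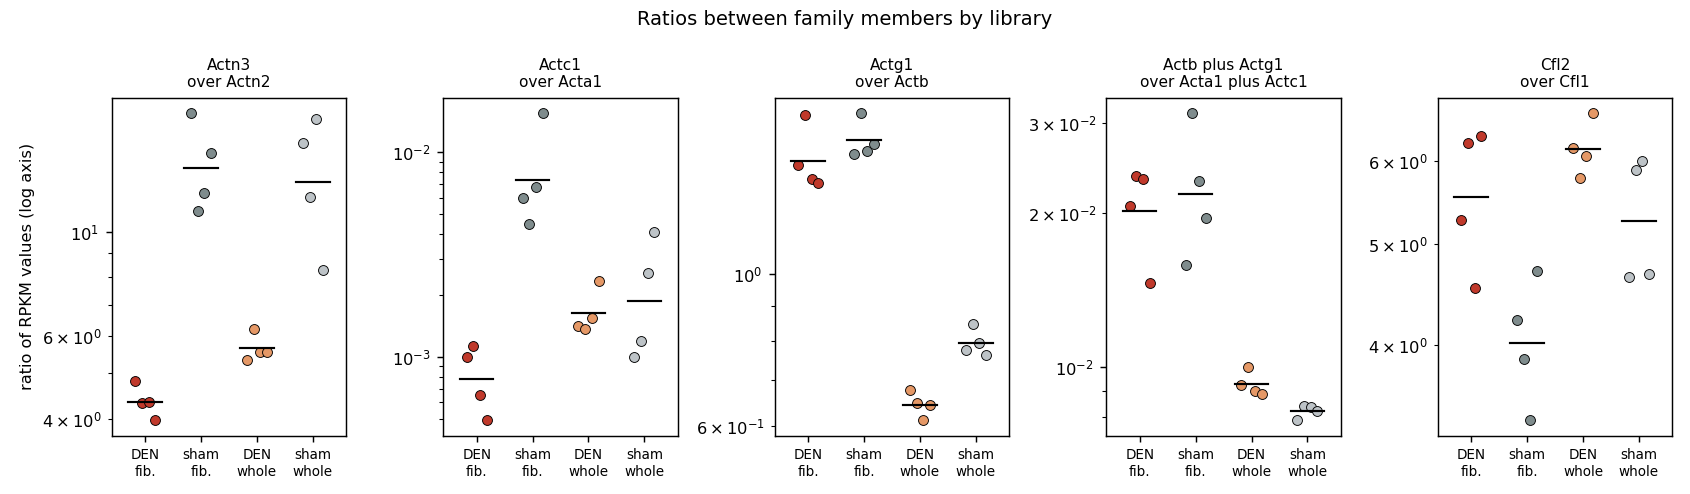
RPKM ratios between pairs of genes in each library on log axes, with lines at the mean of the log2 values of each group (n = 4). Actn3 over Actn2 is 3.98 to 6.21 in the DEN libraries and 8.29 to 17.9 in the Sham libraries, and Actg1 over Actb is above 1 in fibers and below 1 in whole muscle.

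Fibers were then set against whole muscle. In sham muscle 3 members were higher in fibers and 2 lower, where 25.5% and 23.2% of 16005 genes were called. In DEN muscle 2 were higher and 2 lower, against 30.2% and 26.4% of 16856 genes. Actg1 was higher in fibers by a log2 fold change of 1.61 ± 0.12 in DEN (adjusted p = 2.20e-06) and 1.62 ± 0.11 in Sham (adjusted p = 2.92e-06). Its lowest fiber library, at 424 RPM, was above its highest whole muscle library, at 192.1 RPM. Actb was also higher in fibers, at 0.41 ± 0.07 in DEN (adjusted p = 0.000671) and 0.63 ± 0.09 in Sham (adjusted p = 0.000395). Actn3 was lower in fibers by the same size in both, at -0.47 ± 0.08 in DEN (adjusted p = 0.000970) and -0.47 ± 0.12 in Sham (adjusted p = 0.0102).

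Actc1 changed sides. It was lower in fibers than in whole muscle in DEN, at -1.18 ± 0.26 (adjusted p = 0.00331), and higher in Sham, at 1.70 ± 0.56 (adjusted p = 0.0297). The sham value lost its call without sham fiber replicate 4 (1.06, adjusted p = 0.0924) and without sham whole muscle replicate 1 (1.47, adjusted p = 0.0701), 2 (1.48, adjusted p = 0.0733) or 3 (1.78, adjusted p = 0.0550). Actn2 was lower in sham fibers than in sham whole muscle by -0.60 ± 0.15 (adjusted p = 0.00807) and at -0.086 ± 0.098 in DEN (adjusted p = 0.481). Acta1 and Cfl2 did not pass in either, although without DEN fiber replicate 4 both were lower in DEN fibers than in DEN whole muscle, Acta1 by -0.21 (adjusted p = 0.0396) and Cfl2 by -0.14 (adjusted p = 0.0484). Total scaling placed the median gene at 0.029 in Sham and 0.055 in DEN and called the same number of members.

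**Figure D4:**
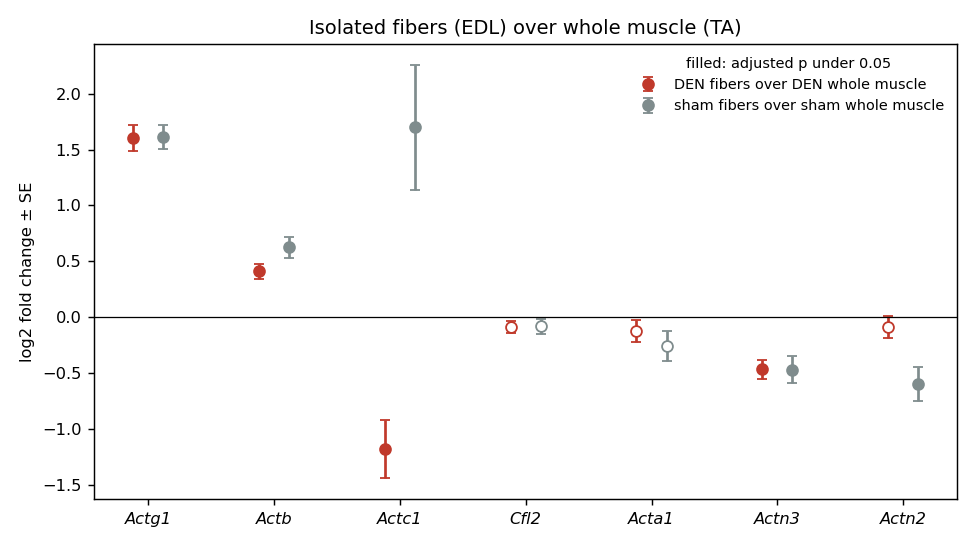
Log2 fold change of isolated EDL fibers over whole TA muscle with its SE for the 7 genes, in DEN (left point of each pair) and in Sham (right point), filled where the adjusted p is under 0.05. Actg1 lies at 1.61 and 1.62, and Actc1 lies at -1.18 in DEN and 1.70 in Sham.

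The remaining actins, actinins and cofilins were read as relatives of the members. Acta2 and Actg2 are the smooth muscle actins. Actn1 and Actn4 are called the non-muscle alpha-actinins and Cfl1 the non-muscle cofilin, and Dstn is related to the cofilins. Of these 6, 1 was called higher and 0 lower in DEN fibers (median log2 fold change 0.47, all genes 0.0076), and 1 higher and 3 lower in DEN whole muscle (median -0.16, all genes 0.024). By totals the counts were 6 higher and 0 lower in fibers, and 2 higher and 1 lower in whole muscle. Acta2 had 180, 28.0, 121 and 320 RPM in DEN fibers, against 43.4, 34.1, 58.1 and 44.5 RPM in sham fibers. DEN fiber replicate 2 stood below all sham fiber libraries and the other DEN libraries stood above them. The log2 fold change of 1.37 ± 0.56 did not pass (adjusted p = 0.0614), and leaving out 1 library gave 0.77 (adjusted p = 0.213) without DEN fiber replicate 4 and 1.73 (adjusted p = 0.00213) without DEN fiber replicate 2. It passed by totals (1.85, adjusted p = 0.0115). In whole muscle Acta2 was lower in DEN, at -0.78 ± 0.14 (adjusted p = 0.000430).

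Actg2, the enteric smooth muscle actin, had 10.1, 0.316, 5.57 and 12.9 RPM in DEN fibers, against 0.351, 0.161, 0.521 and 0.977 RPM in sham fibers. The same DEN fiber replicate 2 was low, so the groups overlapped, and the log2 fold change was 3.34 ± 0.90 (adjusted p = 0.0105). The smooth muscle markers given above, a list that holds Acta2 itself, were likewise low in DEN fiber replicate 2, and the part of smooth muscle cells in the values of Acta2 and Actg2 was not tested. Actn1 did not pass in fibers (0.44 ± 0.27, adjusted p = 0.199) or in whole muscle (-0.028 ± 0.13, adjusted p = 0.860). Actn4 was at 0.064 ± 0.14 in fibers (adjusted p = 0.714) and lower in DEN whole muscle by -0.52 ± 0.07 (adjusted p = 4.93e-05). Cfl1 was at 0.14 ± 0.086 in fibers (adjusted p = 0.190) and higher in DEN whole muscle by 0.41 ± 0.09 (adjusted p = 0.00251). Dstn was at 0.51 ± 0.26 in fibers (adjusted p = 0.132) and lower in DEN whole muscle by -0.29 ± 0.08 (adjusted p = 0.0104). By totals Actn4 was higher in DEN fibers (0.55, adjusted p = 0.00702) and did not pass in whole muscle (-0.090, adjusted p = 0.280). In fibers Cfl1 (0.63, adjusted p = 0.000946), Dstn (0.99, adjusted p = 0.00617) and Actn1 (0.91, adjusted p = 0.0122) were also higher by totals. In whole muscle the signs of Actn1 (0.40, adjusted p = 0.0222) and Dstn (0.14, adjusted p = 0.155) turned with that scaling. Without DEN fiber replicate 2, Actn1 (0.63, adjusted p = 0.0375) and Dstn (0.72, adjusted p = 0.00745) were higher in DEN fibers.

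Proteins that assemble and cap the thin filament formed a list of 15 genes. The counts of this list and the next ones stand against the shares of all genes given above, 27.1% higher and 27.0% lower in fibers and 34.0% higher and 32.2% lower in whole muscle, and by totals 59.5% and 8.93% in fibers and 60.9% and 13.9% in whole muscle. In DEN fibers 2 were higher and 7 lower (median -0.26, by totals 6 and 3), and in DEN whole muscle 2 were higher and 9 lower (median -0.51, by totals 7 and 6). Lmod2, a leiomodin that nucleates actin and lengthens thin filaments and is best known in the heart, averaged 472 ± 48.3 RPM in DEN fibers and 89.4 ± 17.6 RPM in sham fibers (SD, n = 4 each). Its log2 fold change was 1.92 ± 0.13 in fibers (adjusted p = 3.42e-06) and 2.39 ± 0.10 in whole muscle (adjusted p = 1.42e-08). Klhl40, which stabilizes nebulin and a leiomodin in mice, averaged 251 ± 17.9 RPM in DEN fibers and 438 ± 85.6 RPM in sham fibers, a change of -1.30 ± 0.16 (adjusted p = 9.59e-05). In whole muscle it was at 0.089 ± 0.067 (adjusted p = 0.260), and at 0.52 by totals (adjusted p = 2.07e-05). Fhod3, a formin of the sarcomere, was lower by -1.01 ± 0.05 in DEN whole muscle (adjusted p = 3.28e-08) and by -0.44 ± 0.13 in DEN fibers (adjusted p = 0.0158), where it was at 0.048 by totals.

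Actin turnover, a list of 22 genes of the Arp2/3 complex, profilins, thymosins and cofilin regulators, had 10 higher and 5 lower in DEN fibers (median 0.26, all genes 27.1% and 27.0%) and 10 higher and 5 lower in DEN whole muscle (median 0.18, all genes 34.0% and 32.2%). By totals these were 16 and 1 in fibers and 18 and 4 in whole muscle. Wdr1, which speeds filament disassembly by cofilin, averaged 143 ± 9.83 RPM in DEN fibers and 47.0 ± 3.27 RPM in sham fibers, a log2 fold change of 1.12 ± 0.09 (adjusted p = 6.15e-06). In whole muscle its value was 0.66 ± 0.05 (adjusted p = 1.70e-06). Tmsb10, a thymosin that binds actin monomers, was higher by 0.60 ± 0.14 in DEN fibers (adjusted p = 0.00512) and by 1.145 ± 0.16 in DEN whole muscle (adjusted p = 7.66e-05). Pfn2, a profilin, was lower by -1.06 ± 0.10 in fibers (adjusted p = 2.14e-05) and -0.97 ± 0.06 in whole muscle (adjusted p = 1.11e-07).

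The alpha-actinin partners of the Z-disc, 17 genes, had 4 higher and 7 lower in DEN fibers (median -0.14, by totals 9 and 4), where all genes had 27.1% and 27.0%. They had 6 higher and 10 lower in DEN whole muscle (median -0.39, by totals 8 and 7), where all genes had 34.0% and 32.2%. Csrp3, the muscle LIM protein that binds alpha-actinin, averaged 938 ± 119 RPM in DEN fibers and 20.8 ± 18.6 RPM in sham fibers. Its log2 fold change was 5.04 ± 0.55 in fibers (adjusted p = 4.90e-05) and 4.17 ± 0.42 in whole muscle (adjusted p = 6.94e-06), and it was 5.84 without sham fiber replicate 2 and 4.80 without sham whole muscle replicate 4. Myoz2, the calsarcin of slow and cardiac muscle, was higher by 3.30 ± 0.53 in DEN fibers (adjusted p = 0.000551) and by 1.97 ± 0.21 in DEN whole muscle (adjusted p = 1.12e-05). Sorbs2, an adaptor at the Z-disc, averaged 12.98 ± 1.33 RPM in DEN whole muscle and 60.7 ± 8.60 RPM in sham whole muscle. That was a change of -2.66 ± 0.11 (adjusted p = 1.13e-08), whereas in fibers it was at -0.81 ± 0.33 (adjusted p = 0.0604), and at -1.31 (adjusted p = 0.000168) without DEN fiber replicate 4.

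The 8 genes of SRF and MRTF and their partners had 4 higher and 4 lower in DEN fibers (median -0.14, by totals 4 and 2). In whole muscle 7 were tested, with 1 higher and 4 lower (median -0.46, by totals 3 and 3). Fhl2, a LIM-only cofactor of SRF, averaged 10.5 ± 1.83 RPM in DEN fibers and 0.871 ± 0.262 RPM in sham fibers, and 18.2 ± 3.97 RPM in DEN whole muscle and 0.390 ± 0.111 RPM in sham whole muscle. Its log2 fold change was 3.09 ± 0.19 in fibers (adjusted p = 1.42e-06) and 5.09 ± 0.21 in whole muscle (adjusted p = 1.08e-08). Myocd, the SRF partner of heart and smooth muscle, was low throughout. It averaged 1.71 RPM in DEN fibers, with a range of 0.158 to 4.00 RPM, and 0.243 RPM in sham fibers. It was higher in DEN fibers by 2.31 ± 0.83 (adjusted p = 0.0399), and 5 of 8 fits that left out 1 library lost that call. The lowest was 1.41 (adjusted p = 0.129) without DEN fiber replicate 4. Tagln, a smooth muscle gene, was higher in DEN fibers by 1.72 ± 0.59 (adjusted p = 0.0316), which likewise lost its call in 5 of 8 such fits, down to 1.16 (adjusted p = 0.0980) without DEN fiber replicate 4. In whole muscle Tagln was lower in DEN by -0.85 ± 0.14 (adjusted p = 0.000276). Both were low in DEN fiber replicate 2, as Acta2 was.

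Across the 16 libraries, on TMM-scaled log2 values, Pearson's r was 0.95 for Actn2 and Cfl2, 0.93 for Actb and Actg1, 0.68 for Acta1 and Actn3 and 0.63 for Acta1 and Actc1, and -0.75 for Actn2 and Actc1. These values describe 16 libraries of 4 groups, which share their group differences, and carry no test. Over 8467 genes averaging at least 10 RPM in a group, leaving out provisional Gm and Rik symbols, those most like Actn2 were Micu2, Ppp2r3d and Net1 (r of 0.98, 0.97 and 0.97), and those most like Cfl2 were Atp6v1d, Prdx6 and Prdx2 (0.99, 0.98 and 0.98). Acta1 was followed by Gapdh (0.95) and by Gapdh-ps15 and Gapdh-ps16, which are pseudogene copies of Gapdh with reads that may be its own. Actg1 was most like Ahctf1, Trip11 and Zfhx4 (0.99, 0.98 and 0.98), and Actb was most like Tor1b, Ube4a and Hnrnph1 (0.95, 0.94 and 0.94). Actc1 was most like Tmem223, Selenok and Vbp1 (0.93, 0.92 and 0.92).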

How the data were processed

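The authors sequenced polyA-selected, directional libraries single-end, converted them with bcl2fastq 2.20.0.422, trimmed reads with cutadapt 2.1, aligned them to GRCm38 with TopHat2 2.1.0, keeping 1 alignment per read, and counted reverse-stranded reads per gene with featureCounts 1.6.5. The deposited counts are raw reads per gene, the deposited RPM values are those counts scaled to a common library total, and the deposited RPKM values are divided further by a gene length whose definition is not given in the sources used here. No columns of other samples were present.

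Each comparison was fitted across all genes in edgeR 4.0.16 (R 4.3.3) with TMM factors, filterByExpr at a minimum count of 10 and the quasi-likelihood test, on its own 8 libraries, or on all 16 for the difference of DEN effects, with Benjamini-Hochberg adjustment over all genes tested and a threshold of 0.05. The study's own test, DESeq2 (here 1.42.0), was an alternative. Ratios used RPKM values, without a pseudocount. The fit was tested on simulated counts in which as many genes were raised as lowered, which does not test the choice of scaling. No 2 libraries agreed within sampling noise, the lowest mean chi-square between replicates being 13.2. Alternatives were total-count scaling, DESeq2 size factors, no filter, DESeq2's Wald test, all 16 libraries in 1 fit, a replicate block and leaving out each library.

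Beside the members, the named genes were 6 relatives, up to 3 genes per process list with the largest change among those called and reaching 1 RPM, and 3 most alike per member, which for Actn3 are not reported here. Members and lists were chosen with earlier results of these data known. Sequences are from RefSeq (GRCm38.p6) and GENCODE M21.

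Further marker lists gave these counts (higher, lower) in DEN fibers and then DEN whole muscle, with those by totals in brackets. All genes had 27.1% and 27.0%, then 34.0% and 32.2% (59.5% and 8.93%, then 60.9% and 13.9%). Skeletal fiber genes had 3 and 3 of 6, then 2 and 3 (3 and 2, then 3 and 3). Slow fiber genes had 4 and 0 of 4, then 3 and 0 (4 and 0, then 3 and 0). Smooth muscle genes had 4 and 0 of 7, then 0 and 7 (5 and 0, then 0 and 7). Fibro-adipogenic genes had 3 and 0 of 6, then 1 and 2 (4 and 0, then 3 and 0). Endothelial genes had 0 and 2 of 5, then 0 and 4 (1 and 0, then 0 and 3). Muscle stem cell genes had 0 and 0 of 3, then 0 and 1 (1 and 0, then 1 and 0). Schwann genes had 0 and 3 of 4, then 0 and 2 (0 and 3, then 1 and 2). Cardiac genes had 2 and 0 of 4, then 1 and 1 of 2 tested (3 and 0, then 1 and 1).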

Additional observations from a re-analysis of the deposited data

Results flagged for a closer look

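Actn3 in DEN whole muscle had 1 library, replicate 1, at 10380 RPM, far from the other libraries of its group, which lay between 11216 and 11367 RPM. Among the 28 groups of 4 values looked at (7 genes in 4 groups), this was the single one so far apart, and chance alone marks about 1 in 20 groups.

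The effect of denervation on Actc1 differed between fibers and whole muscle, by -2.94 on the log2 scale (edgeR quasi-likelihood test on all 16 libraries, adjusted p = 0.00776), and leaving out any 1 library gave values between -3.38 and -2.23 that all passed. Among the relatives, Acta2 differed the other way, by 2.14 (adjusted p = 0.0269), with 1.57 to 2.53 when 1 library was left out, and the call was lost without DEN fiber replicate 4 (1.57, adjusted p = 0.0566). Actn4 differed by 0.57 (adjusted p = 0.0217). Preparation and muscle, fibers of the EDL and whole TA, cannot be told apart in these 3 values.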

How the results depend on the processing

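Of 544 values of the 7 members under another setting, 498 kept their direction and their side of the threshold, 15 newly passed, 7 no longer passed and 24 changed sign. Total-count scaling turned Acta1 (0.061) and Actb (0.0028) in fibers, Actb (0.20) in whole muscle, Actn3 in fibers (0.30) and whole muscle (0.27), and, among other genes, Actn1 (0.40) and Dstn (0.14) in whole muscle and Fhod3 (0.048) in fibers. Differences between the preparations that lie near zero also turned with it, for Actg1 (0.0028), Actn3 (0.025) and Cfl2 (0.013), and for Actn3 without a filter on low counts (0.0036).

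Leaving out 1 library turned differences of DEN effects of Actg1 (-0.16 to 0.069), Actn3 (-0.079 to 0.078) and Cfl2 (-0.082 to 0.045), and fold changes of Actg2 (-0.11 to 0.43) and Actn1 (-0.15 to 0.049) in whole muscle and Actn4 (-0.0051 to 0.17) in fibers. The ratio of cytoplasmic to sarcomeric actin in fibers ran between -0.26 and 0.068, and Actc1 over Acta1 in whole muscle between -0.51 and 0.17. Members with a differing DEN effect numbered 1 to 2. Acta2 in fibers was called without the filter (1.42, adjusted p = 0.0310) and in 1 fit of all 16 libraries (1.37, adjusted p = 0.0148). The Wald test of DESeq2 (-0.43, adjusted p = 0.00814) and 1 fit of all 16 libraries (-0.43, adjusted p = 0.00672) called Acta1 in fibers. Actc1 in whole muscle was called without the filter (-0.93, adjusted p = 0.0233). In that fit of all 16 libraries Acta2 (-0.77, adjusted p = 0.148), Dstn (-0.28, adjusted p = 0.281) and Tagln (-0.84, adjusted p = 0.136) lost their calls in whole muscle. The cause of these changes was not tested.

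Libraries were not treated as paired by replicate number, since nothing in the labels gives such a pairing. Of 16 same-numbered pairs, 7 had deviations correlated above 0.1 (range -0.065 to 0.26). A library matched best with its own number in 17 of 32 comparisons, where chance gives 1 in 4, a hint from the data and not the design. With a replicate block 6 members were called in fibers (all genes 28.1% higher and 27.8% lower), 6 in whole muscle (32.9% and 31.1%), 5 between sham preparations (25.8% and 24.4%), 4 between DEN preparations (29.9% and 25.9%) and 1 for the difference of effects (7.33% and 11.6%). The block added Acta1 in fibers (-0.42, adjusted p = 0.0458) and Actc1 in whole muscle (-0.74, adjusted p = 0.0124), and, among other genes, Sorbs2 in fibers (-0.96, adjusted p = 0.00976). Exact sign flips of 4 pairs cannot give a p below 0.125, so the ratios allowed no call under the block.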
